A study of Mus musculus with 6 samples.

Results

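*Eif4e1b*, *Atp6ap1l*, *Chil1*, *Slc13a2* and *Trim29* are 5 mouse genes whose promoter windows held a chromatin accessibility peak in every early differentiating library (DIFF) and in no proliferating library (PROLIF) of neural stem cell cultures. A promoter window reached 3 kb to either side of any annotated start site of a gene. Of 21938 protein-coding genes, 82 met that rule, and these 5 were the ones whose weakest DIFF peak ranked highest. The cultures came from the subependymal zone (SEZ) of 10-week-old mice, and ATAC-seq read out accessibility through a transposase that inserts adapters where DNA is exposed. Both states were *Srr2* del/del, which means that the *Sox2* enhancer *Srr2* had been removed with CRISPR-Cas9, and wild-type cultures were not analysed here. PROLIF cultures were taken at 2 days in vitro with mitogen, and DIFF cultures after 1 further day in serum-supplemented medium without mitogens. Each state had 3 libraries, named replicates 1, 2 and 4. The libraries are bulk, so fewer cells open at a site and less opening in each cell cannot be told apart.

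ATAC-seq peaks mark stretches of DNA that nucleosomes leave free, mostly at promoters and enhancers. A peak can lie inside a promoter window without sitting at the start site from which a gene is mainly transcribed. None of the 5 genes is a textbook marker of neural stem cells. *Eif4e1b* encodes a relative of the cap-binding translation factor eIF4E that is best known from oocytes. *Atp6ap1l* is named for its likeness to *Atp6ap1*, an accessory subunit of the vacuolar proton pump. *Chil1* encodes a secreted chitin-binding lectin without chitinase activity that is known from reactive astrocytes and macrophages. *Slc13a2* encodes a sodium-dependent carrier of dicarboxylates in kidney and gut, and *Trim29* a tripartite motif protein studied mainly in epithelia.

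The peak lists held from 60006 to 82741 peaks in the PROLIF libraries and from 70728 to 88039 in the DIFF libraries. The background pileup, the number of reads expected at a position without a peak, was 2.85 to 2.97 reads in PROLIF and 3.63, 2.96 and 6.01 reads in DIFF replicates 1, 2 and 4. At that background a PROLIF library called peaks from a pileup of 10 reads, which is a fold enrichment of 2.77 to 2.86 over background. A missing PROLIF peak shows a signal under that level only where the local background is no higher, and does not establish a closed site. Local background can be higher, and was 9.76 reads at the *Trim29* site in DIFF replicate 4. It is not known for a library without a peak at the site. Peaks are compared below by their percentile within their own list, ranked by −log10 p with the strongest peak of a list near 100. Promoters of the stem and progenitor markers *Sox2*, *Nes*, *Fabp7*, *Slc1a3*, *Gfap* and *Olig2* had a peak in every library. Of the early neuron markers, *Tubb3* had it in every library and *Dcx* in none. A peak in every library was found for 0 of 5 epithelial, 1 of 5 endothelial and 2 of 5 microglial markers. The share of all protein-coding genes was 64.4%. Among the microglial markers, *Aif1* lacked it in PROLIF replicate 2 alone and *Tmem119* in DIFF replicate 1 alone. The epithelial marker *Krt14* had a promoter peak in the 3 DIFF libraries alone and the endothelial marker *Pecam1* in the 3 PROLIF libraries alone, and their part in the values below was not tested.

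The DNA under the strongest DIFF peak of each gene is shown because these 5 sites carry the pattern. Each stretch covers 100 bases to either side of the peak summit in GRCm38, reads 5′ to 3′ on the plus strand and overlaps no annotated UTR. Its place is chr13:54780696-54780896 for *Eif4e1b*, chr13:90896205-90896405 for *Atp6ap1l*, chr1:134181973-134182173 for *Chil1*, chr11:78424448-78424648 for *Slc13a2* and chr9:43331598-43331798 for *Trim29*. Capitals mark matches to 12 short motifs that were searched on both strands.
Eif4e1b: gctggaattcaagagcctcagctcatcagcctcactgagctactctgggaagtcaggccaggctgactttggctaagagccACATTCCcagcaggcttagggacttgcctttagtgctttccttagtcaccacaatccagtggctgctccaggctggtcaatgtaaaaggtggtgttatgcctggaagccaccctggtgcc
Atp6ap1l: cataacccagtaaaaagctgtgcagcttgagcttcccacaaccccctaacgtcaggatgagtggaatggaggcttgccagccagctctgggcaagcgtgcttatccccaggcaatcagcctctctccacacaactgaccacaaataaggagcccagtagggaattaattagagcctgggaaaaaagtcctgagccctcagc
Chil1: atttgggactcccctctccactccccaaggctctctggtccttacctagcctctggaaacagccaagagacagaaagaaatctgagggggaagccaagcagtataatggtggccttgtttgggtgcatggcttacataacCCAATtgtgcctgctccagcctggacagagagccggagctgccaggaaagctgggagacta
Slc13a2: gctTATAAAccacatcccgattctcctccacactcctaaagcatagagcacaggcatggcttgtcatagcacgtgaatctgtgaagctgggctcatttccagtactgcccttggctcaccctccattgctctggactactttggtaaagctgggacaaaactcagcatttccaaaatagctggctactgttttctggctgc
Trim29: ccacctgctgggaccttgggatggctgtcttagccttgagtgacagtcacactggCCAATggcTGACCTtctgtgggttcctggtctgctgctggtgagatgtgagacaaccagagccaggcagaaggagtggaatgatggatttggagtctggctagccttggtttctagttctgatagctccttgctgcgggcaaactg

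The motifs were the AP-1 site, spelled TGACTCA or alternatively TGAGTCA, the cyclic AMP response element, spelled TGACGTCA, and the short NFI motif TTGGCA. The E-box was searched as CAGCTG and separately as CAGATG, and the SOX motif as ACAATG or else as ACAAAG. The others were the CCAAT box, the GC box with letters GGGCGG, the ETS motif with letters CCGGAAG, the TEAD motif with letters ACATTCC, the nuclear receptor motif with letters AGGTCA and the TATA box with letters TATAAA. The *Eif4e1b* stretch held the TEAD letters 19 bases before the summit, letters also present in 4.28% of 119719 windows of 201 bases at the summits of all regions. The *Chil1* stretch held CCAAT, present in 25.5% of all windows, 63 bases upstream of the gene's first annotated start site. The *Slc13a2* stretch held TATAAA, found in 6.74% of windows, at its edge nearest the gene, 97 bases from the summit. These letters were on the plus strand, opposite to the gene, and 2234 bases upstream of the start site. *Trim29* held CCAAT and, on the reverse strand as TGACCT, the nuclear receptor motif, which 10.7% of windows held. No marked stretch overlapped another, and *Atp6ap1l* matched none of the 12 motifs. The NFI motif, present in 32.8% of the windows of DIFF-only regions and 18.3% of all windows, was at 0 of the 5 sites. AP-1 letters were at 0 of 5 as well, against 5.76% of all windows. GC content of the 5 stretches was 48.8% to 54.7%, beside a median of 50.2% over all windows, and each held from 0 to 2 CpG dinucleotides, beside a median of 2.

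Since the genes were selected on these peaks, the levels that follow are a description and no test of the state difference was made on them. The rule held for 0.374% of protein-coding genes, and it held for all 5 because it chose them. The lowest percentile over the 3 DIFF libraries was 66.1 for *Eif4e1b*, 65.5 for *Atp6ap1l*, 60.2 for *Chil1* and 56.9 for both *Slc13a2* and *Trim29*. The next genes in that order, just outside the group, were *H2-DMb1* at 54.9 and *Spx* at 52.7. These peaks were thus of middle to upper rank in their lists, while the median of the lowest percentile was 19.6 over the other 77 genes with the pattern and 80.2 over the 14126 genes with a promoter peak in all 6 libraries.

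**Figure D1:**
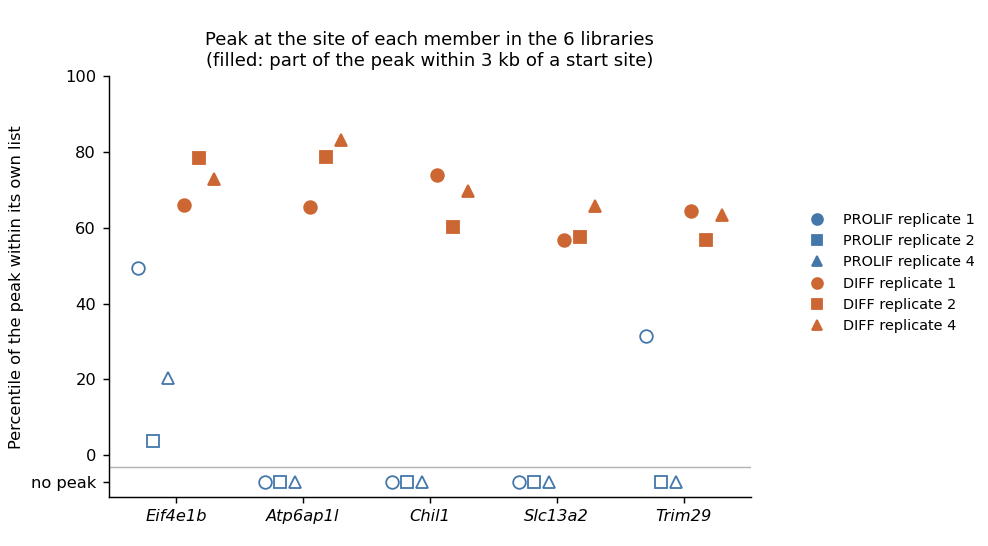
Percentile of the peak at the site of each gene within the peak list of its own library, for 3 PROLIF and 3 DIFF libraries; filled symbols mark peaks that reach within 3 kb of a start site, open symbols mark peaks of the same region that do not, and symbols at the foot mark libraries without a peak. The 15 DIFF values run from 56.9 to 83.3, and *Eif4e1b* has open PROLIF symbols at 3.74, 20.3 and 49.4 and *Trim29* one at 31.6.

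*Chil1* was the gene of the group with its peak at the main start site. The gene (ENSMUSG00000064246.10) lies at chr1:134182176-134190181 on the plus strand, with 8 transcripts from 7 start sites and the main one at 134182404. The summit lay 331 bases upstream of that start in DIFF replicate 1 and 272 bases upstream in DIFF replicates 2 and 4. Each of the 3 intervals covered the main start site and the first one, 228 bases upstream. The percentiles were 73.9, 60.2 and 69.8 in DIFF replicates 1, 2 and 4, with fold enrichments of 7.38, 7.23 and 6.92 over local background (mean 7.18 ± 0.233, SD, n = 3). The 3 fold enrichments lay closer together than those of any other gene of the group. Pileups were 44, 30 and 48 reads. No PROLIF library had a peak in the merged region chr1:134181696-134182534. The nearest PROLIF summits were 14016 and 14020 bases upstream of the site in replicates 1 and 2 and 14090 bases downstream in replicate 4.

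*Eif4e1b* met the rule by the edges of its peaks. The gene (ENSMUSG00000074895.10) lies at chr13:54783998-54788459 on the plus strand, and its 5 start sites fall within 54783998 to 54784020. The DIFF summits lay 3212, 3207 and 3206 bases upstream of the main start site in replicates 1, 2 and 4, in an intron of *Gm16249*, a noncoding gene annotated as antisense. All 3 PROLIF libraries had a peak in the same region, with summits 4, 91 and 6 bases from the median DIFF summit. These PROLIF peaks ended 52, 201 and 167 bases outside the 3 kb limit in replicates 1, 2 and 4, while the wider DIFF peaks crossed it. Widths were 266, 192 and 100 bases in PROLIF and 469, 664 and 683 bases in DIFF.

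The *Eif4e1b* region, chr13:54780480-54781196, was therefore open by the peak lists in both states and ranked higher in DIFF. Percentiles were 49.4, 3.74 and 20.3 in PROLIF and 66.1, 78.4 and 72.8 in DIFF replicates 1, 2 and 4, and the states did not overlap. The fold enrichments were 6.04, 3.05 and 3.90 in PROLIF and 6.86, 11.9 and 7.56 in DIFF, also without overlap, though PROLIF replicate 1 came close to DIFF replicate 1. Pileups were 23, 11 and 14 reads in PROLIF and 32, 46 and 52 reads in DIFF. The mean percentile was 48.0 higher in DIFF. The choice of the gene by its DIFF peaks favoured both this difference and the lack of overlap. The share of all regions with a peak in every library that separate in this way is not given here.

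*Atp6ap1l* had its peak inside the gene. It (ENSMUSG00000078958.9) spans chr13:90883433-90905355 on the minus strand with its main start site at 90905355. The DIFF summits lay in an intron 9054, 9023 and 9050 bases downstream of that start. They counted as promoter peaks through the start site of another protein-coding transcript at 90898824, which they followed by 2523, 2492 and 2519 bases. The percentiles were 65.5, 78.7 and 83.3 in DIFF replicates 1, 2 and 4, and the fold enrichments 6.90, 11.7 and 10.8 (mean 9.83 ± 2.57, SD, n = 3). With 75 reads in DIFF replicate 4 this site had the largest pileup of the 5 sites. The merged region chr13:90896006-90896518 had no PROLIF peak. A PROLIF peak lay 3998, 3967 and 4003 bases further along the gene in replicates 1, 2 and 4, in a region where the percentiles were 67.8, 40.9 and 46.7 in PROLIF and 5.08 in DIFF replicate 1, without a peak in DIFF replicates 2 and 4. The gene body thus held a DIFF peak and a mostly PROLIF peak about 4 kb apart, both intronic.

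*Slc13a2* had an intergenic peak upstream of its single start site. The gene (ENSMUSG00000001095.5) lies at chr11:78397087-78422217 on the minus strand, with 1 transcript that starts at 78422217. The DIFF summits lay 2349, 2284 and 2331 bases upstream in replicates 1, 2 and 4. The percentiles were 56.9, 57.5 and 65.8 and the fold enrichments 5.83, 7.08 and 6.27 (mean 6.39 ± 0.633, SD, n = 3). Pileups of 26, 27 and 43 reads included the lowest of the 15 DIFF values. No PROLIF library had a peak in the merged region chr11:78424243-78424776, and none had one within 3 kb of the start site. The nearest PROLIF summits lay 12102 and 24634 bases downstream of the site in replicates 1 and 2 and 41337 bases upstream in replicate 4.

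*Trim29* had the site farthest from a main start. The gene (ENSMUSG00000032013.6) spans chr9:43310848-43336115 on the plus strand, and its main start site is at 43310848. The DIFF summits lay in an intron 20850, 21180 and 21128 bases downstream of it. The start site that brought them into a promoter window, at 43328995, belongs to a transcript annotated as a retained intron, and the summits followed it by 2703, 3033 and 2981 bases. Percentiles were 64.5, 56.9 and 63.3 in DIFF replicates 1, 2 and 4, and the fold enrichments of 5.45, 6.05 and 4.83 (mean 5.44 ± 0.606, SD, n = 3) gave the lowest mean of the 5 genes. PROLIF replicate 1 had a peak in the same region, chr9:43331609-43332575, 114 bases beyond the 3 kb limit, at percentile 31.6 and a fold enrichment of 4.53. PROLIF replicates 2 and 4 had none there.

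**Figure D2:**
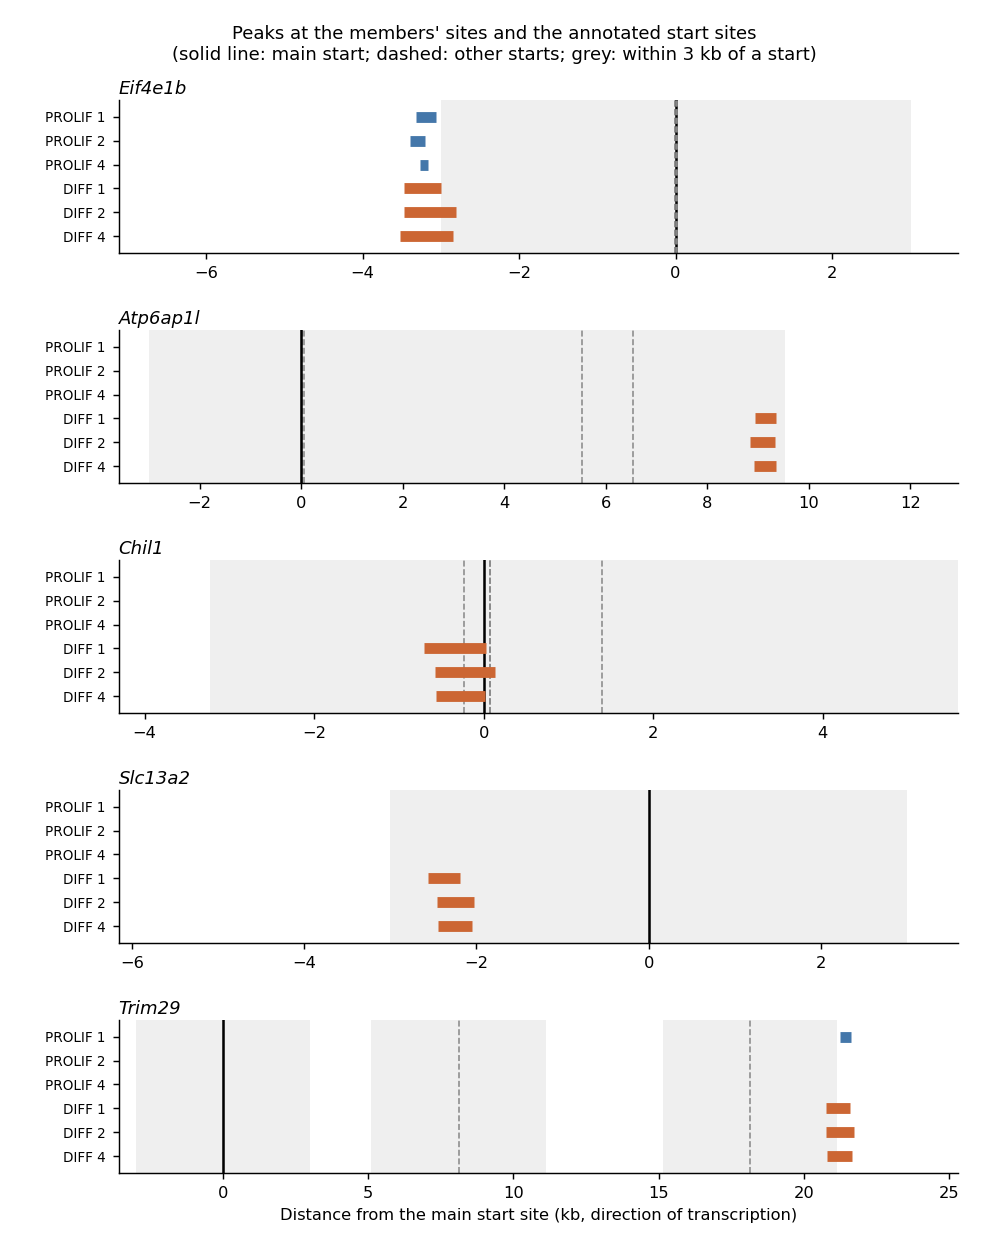
Extent of the peaks at the 5 sites in each of the 6 libraries (bars), against distance in kb from the main start site in the direction of transcription; lines mark annotated start sites and grey the promoter windows of 3 kb, and the *Chil1* panel leaves out its farthest start site. The DIFF bars of *Chil1* cover the main start, those of *Trim29* lie over 20 kb from it, and the PROLIF bars of *Eif4e1b* end just outside the window.

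The merged regions of *Atp6ap1l*, *Chil1* and *Slc13a2* were thus without a PROLIF peak. Of the 82 genes with the pattern, 30 (36.6%) had the summit within 1 kb of the main start in every DIFF library. The group contributed 1 of 5 and the other genes 29 of 77 (37.7%). Among the 50 genes with the opposite pattern, a promoter peak in every PROLIF and no DIFF library, 16 (32.0%) had it there, and among genes with a promoter peak in all 6 libraries 10574 of 14126 (74.9%). Summits over 3 kb from the main start in every DIFF library were found for 3 of the 5 genes and 18 of the other 77 (23.4%). A peak of a PROLIF library lay in the merged region of 2 of the 5 genes and 3 of the other 77 (3.90%). These are counts of selected genes and no test was made on them.

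The surroundings of the genes did not enter the rule. Within the gene bodies and 50 kb to either side, 50 further regions had a peak in at least 1 library. All 6 libraries had a peak at 15 (30%) of them, beside 33.5% of all regions. DIFF-only regions, with a peak in every DIFF and no PROLIF library, numbered 3 (6%), beside 3.48% of all regions. PROLIF-only regions, the reverse, also numbered 3 (6%), beside 1.79%. The remaining 29 had other patterns. The number of DIFF-only regions was 5 without PROLIF replicate 2 and 6 without DIFF replicate 1, where 4.07% and 5.77% of all regions met the rule on the libraries left.

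DIFF-only regions occurred in the windows of *Chil1* and *Slc13a2*. The *Chil1* window had 2, both in introns of the neighbouring *Adora1*, which encodes an adenosine receptor. At chr1:134213540-134213731 the percentiles were 35.7, 39.6 and 22.1 in DIFF replicates 1, 2 and 4, and at chr1:134219650-134219960 they were 35.5, 35.6 and 8.39. Both ranked lower than the *Chil1* peak in each DIFF library. A PROLIF-only region lay between the *Chil1* promoter and these, at chr1:134210261-134210750 in *Adora1*, with percentiles of 70.1, 66.8 and 78.9 in PROLIF replicates 1, 2 and 4. In its lists that region ranked about as high as the *Chil1* peak did in the DIFF lists. The *Slc13a2* window had 1 DIFF-only region at chr11:78360556-78360760, in an intron of *Foxn1*, the regulator of thymic epithelium, at percentiles 44.5, 21.8 and 42.5.

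Both other PROLIF-only regions were in the *Atp6ap1l* window. They lay at chr13:90864404-90864553, with percentiles of 59.0, 19.8 and 31.0 in PROLIF replicates 1, 2 and 4, and in an intron of the autophagy gene *Atg10* at chr13:90952453-90952659, with 38.7, 19.8 and 39.6. *Slc13a2* had a further region in an intron of its own, singled out after its values were seen, at chr11:78412000-78412638, 9913 bases downstream of the start. There the percentiles were 55.6, 57.5 and 68.4 in DIFF replicates 1, 2 and 4 and 7.70 in PROLIF replicate 1, with no peak in PROLIF replicates 2 and 4.

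**Figure D3:**
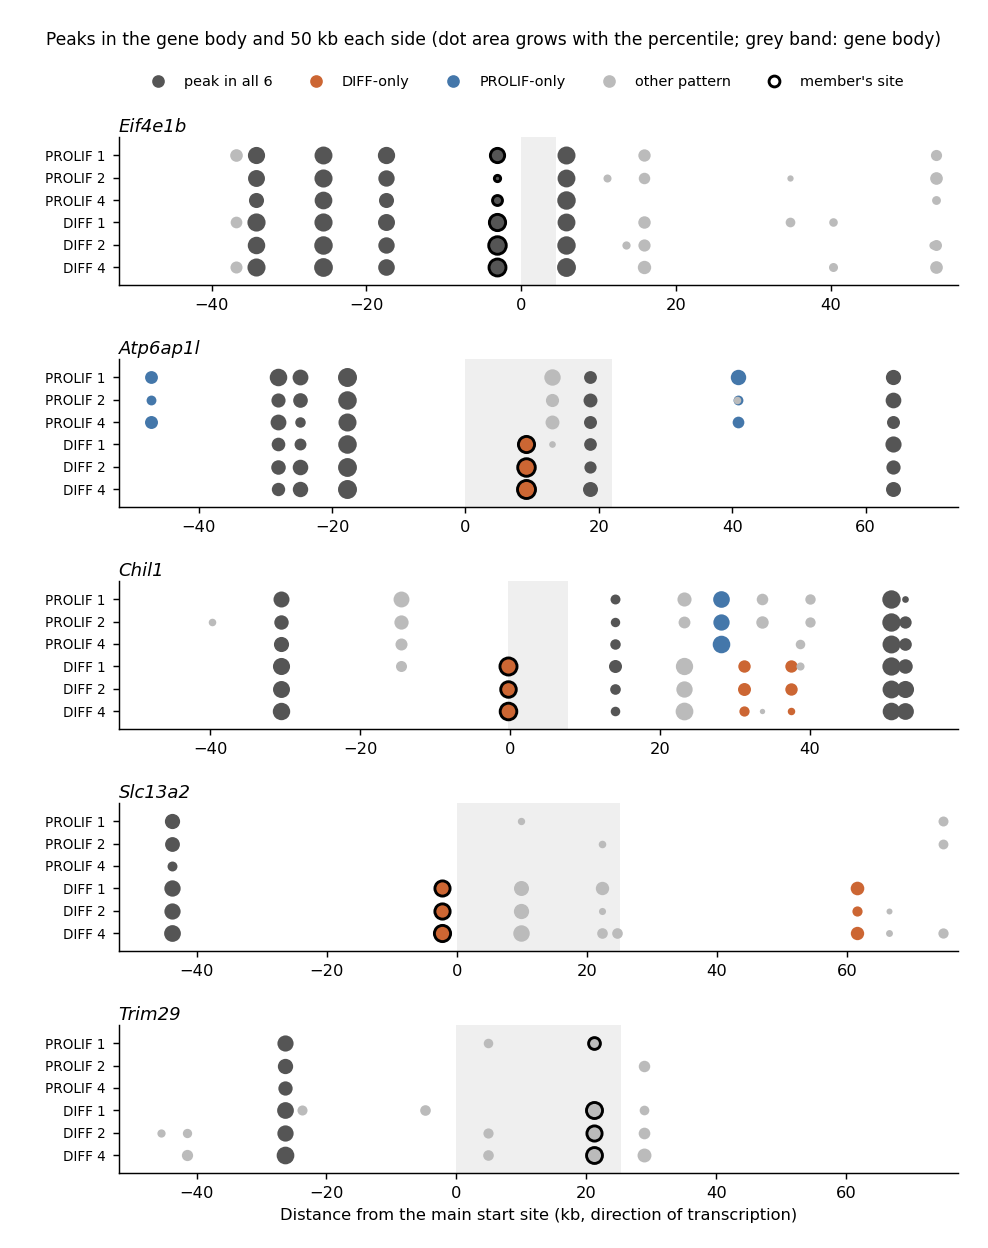
Peaks in each gene body and 50 kb to either side, by library (rows) and distance in kb from the main start site; dot area grows with the percentile, colour gives the pattern over the 6 libraries, black outlines mark the site of the gene and grey bands the gene body. Outside the outlined sites, DIFF-only dots stand in the windows of *Chil1* (2 regions) and *Slc13a2* (1 region), and PROLIF-only dots in those of *Atp6ap1l* (2 regions) and *Chil1* (1 region).

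The number of further peaks in each window was compared between states by a two-sided exact permutation test over the 6 libraries, adjusted by Benjamini-Hochberg over the 5 genes. With 3 libraries against 3 the smallest p such a test can give is 0.1, so no comparison could pass 0.05. In the *Slc13a2* window the PROLIF libraries had 3, 3 and 1 further peaks and the DIFF libraries 4, 6 and 8. The states did not overlap, and the difference in means was 3.67 (exact permutation p = 0.1, adjusted 0.167). In the *Trim29* window the numbers were 2, 2 and 1 in PROLIF and 4, 5 and 4 in DIFF, a difference of 2.67 without overlap (exact permutation p = 0.1, adjusted 0.167). Over the windows of all protein-coding genes, with nothing left out, 7.94% had more peaks in every DIFF than in every PROLIF library.

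The *Atp6ap1l* window went the other way. It held 9, 10 and 8 further peaks in PROLIF replicates 1, 2 and 4 and 7, 5 and 6 in DIFF, a difference of −3 without overlap (exact permutation p = 0.1, adjusted 0.167). Fewer peaks in every DIFF than in every PROLIF library were found for 1.52% of all gene windows. The *Atp6ap1l* difference was −2.00 with flanks of 25 kb (exact permutation p = 0.2) and −2.00 with flanks of 100 kb (exact permutation p = 0.3). The states were no longer apart at either flank. Numbers overlapped between the states in the *Eif4e1b* window (8, 9 and 5 against 9, 9 and 8) and in the *Chil1* window (9, 11 and 7 against 12, 7 and 9). The differences in means there were 1.33 (exact permutation p = 0.7, adjusted 0.875) and 0.333 (exact permutation p = 1.00, adjusted 1.00). With every list cut to its strongest 59792 peaks, the differences were 2 for *Slc13a2*, 1.67 for *Trim29*, where the states were then no longer apart, 0.333 for *Eif4e1b*, −3 for *Atp6ap1l* and −1.33 for *Chil1*. Without PROLIF replicate 4 the difference for *Eif4e1b* was 0.167, and without PROLIF replicate 2 it was 2.17.

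Regions of the windows with a peak in all 6 libraries could be compared by rank. Over all 40102 such regions of the genome the median DIFF minus PROLIF percentile was 2.26, with quartiles of −3.19 and 9.51. In the *Chil1* window the mean percentile of 4 such regions was 44.2, 47.6 and 49.9 in PROLIF replicates 1, 2 and 4 and 62.8, 63.3 and 61.4 in DIFF, and the states did not overlap. The difference was 15.3 (exact permutation p = 0.1, adjusted 0.125). With lists of equal length 2 of the 4 regions were left, and they differed by 7.17. With flanks of 25 kb 1 region was left, and it differed by 7.10 with overlap (exact permutation p = 0.4). In the *Eif4e1b* window 4 regions averaged 79.1, 76.4 and 70 in PROLIF and 81.0, 80.3 and 84.1 in DIFF, a difference of 6.64 with little room between the states (exact permutation p = 0.1, adjusted 0.125), or 4.30 without PROLIF replicate 4. With flanks of 25 kb 2 of these regions were left, and they differed by 3.27 (exact permutation p = 0.3). Among the strongest 20000 peaks 2 were left, with a difference of 4.24 (exact permutation p = 0.2). The states were not apart at either setting. The windows of *Slc13a2* and *Trim29* had a single shared region each. That of *Slc13a2*, at the promoter of *Slc46a1*, differed by 24.2, or by 12.4 without PROLIF replicate 4, and that of *Trim29*, 26384 bases upstream of its main start and outside any gene, had percentiles of 65.7, 58.0 and 49.8 in PROLIF and 70.9, 66.5 and 80 in DIFF and differed by 14.6. Neither overlapped between the states (exact permutation p = 0.1 and adjusted 0.125 for both).

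For *Atp6ap1l* the 5 shared regions averaged 66.1, 59.6 and 49.7 in PROLIF and 53.7, 57.5 and 61.0 in DIFF, and the states overlapped (difference −1.03, exact permutation p = 0.9, adjusted 0.9). The mean was higher in every DIFF than in every PROLIF library for 4 of the 5 windows. Among all 18942 gene windows with a shared region 22.8% did so, and 4.79% had the reverse. The windows were those of selected genes, so the share is given without a test.

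**Figure D4:**
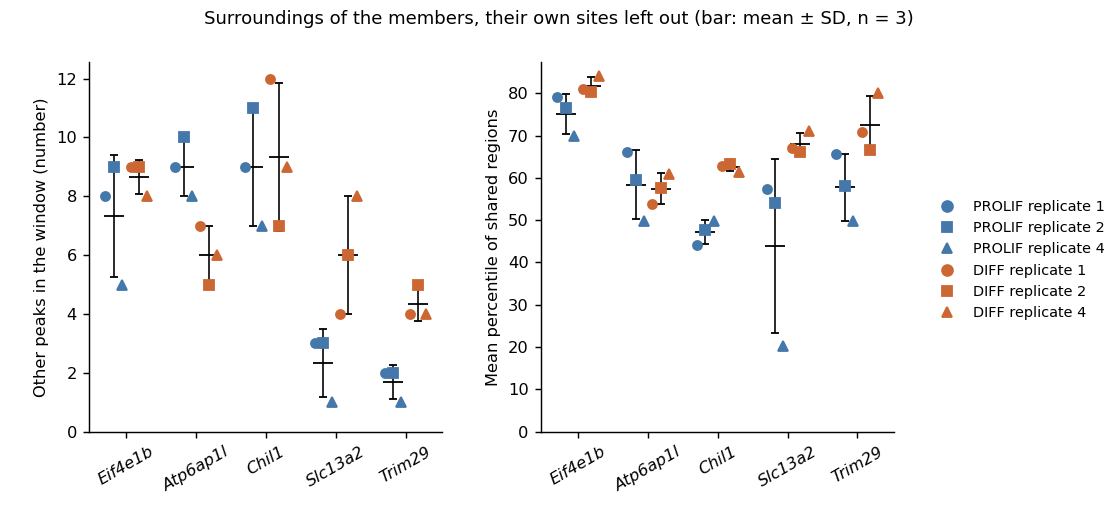
Number of peaks in the window of each gene (left) and mean percentile of the window's regions with a peak in all 6 libraries (right), the site of the gene left out, for each library with mean ± SD (n = 3). In the right panel every DIFF value stands above every PROLIF value except for *Atp6ap1l*, where the means were 57.4 and 58.4.

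The peak names carry an input data number for each library, lower for PROLIF replicates 1 and 4 and DIFF replicate 1 and higher for PROLIF replicate 2 and DIFF replicates 2 and 4. Within the lower and the higher numbers, the peak number differed by 2.5 and 2.5 for *Trim29*, by 2.00 and 4.00 for *Slc13a2* and by −1.50 and −4.50 for *Atp6ap1l*. It changed sign for *Chil1* (4.00 and −3) and *Eif4e1b* (2.5 and −0.500). The mean percentile of shared regions differed by 15.8 and 14.8 for *Chil1*, 6.47 and 5.82 for *Eif4e1b*, 28.3 and 14.6 for *Slc13a2*, 13.1 and 15.3 for *Trim29* and −4.14 and −0.318 for *Atp6ap1l*. The group of lower numbers held a single DIFF library and that of higher numbers a single PROLIF library.

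In all, 10 protein-coding genes had a start site in one of the windows, and 0 of these 10 had a promoter peak in every DIFF and no PROLIF library. With 0.374% of all protein-coding genes meeting that rule, a count of 0 among 10 sets the neighbours apart from no other genes. In 7 (70%) the promoter was open in all 6 libraries, beside 64.4% of all protein-coding genes. The promoters of *Chit1*, a chitinase gene next to *Chil1*, and of *Foxn1* had no peak in any library. *Mybph*, a myosin-binding protein gene, had a weak promoter peak in all DIFF libraries (40, 24.3 and 12.7) and in PROLIF replicates 1 and 4 (20.3 and 23.4). The merged region there, chr1:134195973-134196744, had a peak in all 6 libraries. In PROLIF replicate 2 it stood at percentile 17.5 and lay outside the 3 kb limit. No protein-coding gene other than *Trim29* started in the *Trim29* window.

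Both promoters with peaks near *Slc13a2* ranked higher in DIFF, and single neighbours were not tested beyond the *Slc46a1* region above. No share of all promoters that separate in this way is given here, for these or for the neighbours below. Among all gene windows with a shared region, the mean was higher in every DIFF library for 22.8%. *Unc119*, which encodes a lipid-binding trafficking protein and has its main start just outside the window, had percentiles of 25.5, 37.4 and 11.7 in PROLIF replicates 1, 2 and 4 and 64.5, 47.9 and 72.4 in DIFF, without overlap (24.9 ± 12.9 and 61.6 ± 12.5, SD, n = 3). *Slc46a1*, the proton-coupled folate transporter, had 57.3, 54.0 and 20.3 in PROLIF and 67.1, 66.1 and 71.0 in DIFF, also without overlap. PROLIF replicate 4 was the lowest library at both. Fold enrichments ran from 3.37 to 4.82 in PROLIF and from 5.35 to 6.62 in DIFF for *Unc119*. For *Slc46a1* they ran from 3.90 to 7.05 and from 6.55 to 8.02, and overlapped. The *Unc119* peaks ranked here lay outside the window. The *Unc119* promoter region inside it, chr11:78347384-78347617, had percentiles of 20.6 and 19.8 in PROLIF replicates 1 and 2 and 22.2 in DIFF replicate 4. The other libraries had no peak there.

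Neighbours of *Eif4e1b* were open in both states. *Gprin1*, a gene linked to neurite outgrowth, had percentiles of 75, 72.6 and 56.1 in PROLIF and 84.7, 77.9 and 83.9 in DIFF replicates 1, 2 and 4, without overlap. Its fold enrichments ran from 5.36 to 8.86 in PROLIF and from 8.50 to 9.33 in DIFF, and overlapped. *Sncb*, which encodes β-synuclein, averaged 66.4 ± 10.0 in PROLIF and 70.1 ± 2.68 in DIFF (SD, n = 3), and the tetraspanin gene *Tspan17* 84.2 ± 3.27 and 86.9 ± 5.08. Both overlapped between the states. The same held for *Rps23*, a ribosomal protein gene upstream of *Atp6ap1l*, at 88.4 ± 4.88 and 91.3 ± 2.21. *Adora1*, next to *Chil1*, averaged 85.5 ± 2.74 in PROLIF and 82.2 ± 3.27 in DIFF, with overlap, at its strongest promoter region. Its second promoter region, chr1:134234758-134235449, covers the main start of *Adora1* and ranked lower in PROLIF replicates 1, 2 and 4 (5.23, 35.1 and 37.2) than in DIFF (51.4, 74.2 and 71.1), without overlap. It was singled out after its values were seen and is one of the 4 shared regions of the *Chil1* window, the one with the largest difference.

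**Figure D5:**
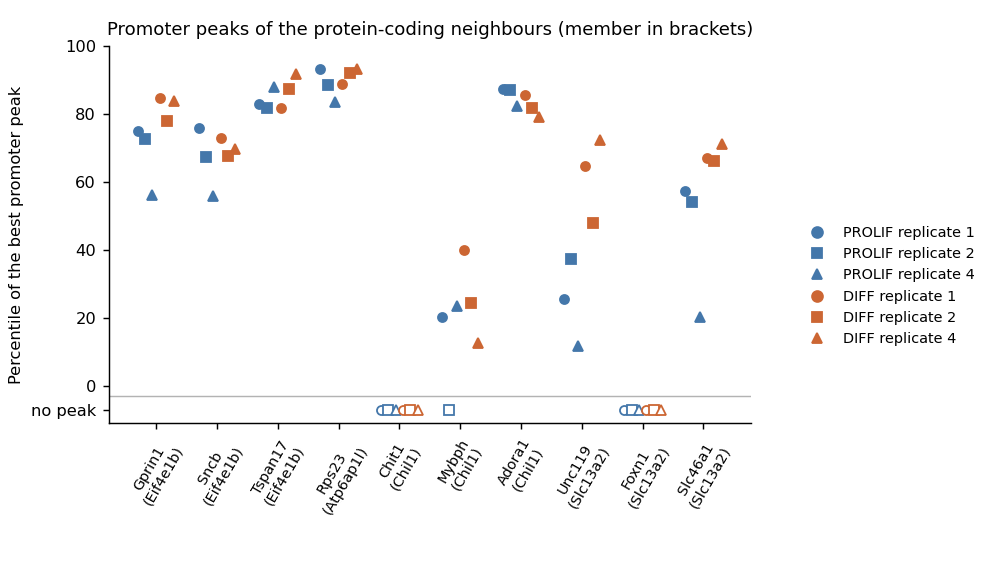
Percentile of the best promoter peak in each library for the 10 protein-coding genes that start in a window, with the gene whose window it is in brackets; open symbols at the foot mark libraries without a promoter peak. *Unc119* and *Slc46a1* stand lower in all PROLIF libraries than in all DIFF libraries, while *Tspan17*, *Rps23* and *Adora1* stand near the top in both states.

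Promoters of relatives of the 5 genes were counted in the same way. Of 74 paralogues, 47 (63.5%) had a promoter peak in all 6 libraries, near the 64.4% of all protein-coding genes, 16 had none in any and 11 had other patterns. A DIFF-only promoter peak was found for 0 of the 74, beside the 0.374% of all protein-coding genes, and a PROLIF-only one for 0 as well, so neither count stands apart from the background. *Eif4e*, *Eif4e2* and *Eif4e3* all had a peak in every library, as did *Atp6ap1* and *Atp6ap2*. Among 9 relatives of *Chil1* in the glycoside hydrolase family, *Chid1* and *Ctbs* had it in all 6 libraries, *Chil4*, *Chil6*, *Chit1* and *Ovgp1* in none, and 3 had other patterns. Of the 4 other SLC13 carriers 3 had it in every library, and of the 56 other TRIM genes 37 (66.1%) did.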

How the data were processed

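ATAC-seq peak lists of 6 *Srr2* del/del libraries, 3 per state by the labels, were analysed. Per the study's methods, the authors removed adapters (Cutadapt) and low-quality ends (Trimmomatic), discarding reads under 20 bases. They aligned the pairs to GRCm38 (Bowtie2), flagged duplicates (Picard) and called narrow peaks library by library (MACS2, no model, false discovery rate 0.05). Versions, read extension, transposase shift and blacklist are not given in the sources used here, and each can move peak edges. The deposited score is 10 times the −log10 q, the deposited fold enrichment is a ratio to local background, and −log10 p and q values were deposited beside them.

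Background and pileup were solved from fold and p, and pileups came back whole within 0.05 reads for at least 99.9939% of peaks. Start sites came from GENCODE M21 and 21 assembled chromosomes were used. The main start was that of the transcript best supported by APPRIS, then CCDS, support level and length. Peaks overlapping by 1 bp or more were merged. The genes named were the 5, their window neighbours, paralogues, the 2 genes next in rank and the state-only regions of the windows. A planned marker gene is not reported here. Members, lists and tests were chosen with earlier results of these data known. The scripts recovered all planted values on simulated data. Labels call the libraries replicates, and the study describes its ATAC-seq replicates as independent and biological. The p-values set each difference between states against those from other assignments of the state labels to the libraries. Alternatives covered q, list length, promoter width, flanks, cover, motif windows, each library left out and the replicate block. The scripts ran under matplotlib 3.10.9, numpy 2.4.6 and pandas 2.3.3 in Python 3.11.15, with scipy 1.17.1 for the tests and samtools 1.23.1 and pysam 0.24.0 for the genome.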

Additional observations from a re-analysis of the deposited data

How the results depend on the processing

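Values that changed sign or size under an alternative setting are given here, and the cause was not tested unless named. Leaving out a library cannot remove a gene from the rule, so it says nothing about the 5 genes. Their count fell to 1 (*Chil1*) with promoters of 1 kb, where 63 of all protein-coding genes met the rule. It fell to 0 among the strongest 20000 peaks, where 228 genes met the rule. Their lowest percentiles, from 56.9 to 66.1, set that 0. In checks chosen after seeing the data their count was 3 with promoters of 5 kb, where *Eif4e1b* had a peak in all 6 libraries. It was also 3 when the summit had to lie within 3 kb, and both times *Atp6ap1l*, *Chil1* and *Slc13a2* were left. Over all protein-coding genes, 93 and 79 met the rule in these checks. With a limit of 3 kb, 2 genes had the peak at the main start. Further DIFF-only regions numbered 1 among the strongest 20000 peaks and with flanks of 25 kb. Both settings leave fewer regions to count, and their number is not given here. With a library left out such regions numbered 3 to 6, where 3.73% to 5.91% of all regions met the rule. The peak number of *Chil1* differed by −0.667 at a q of 0.001 and with flanks of 100 kb, by −1.33 in lists of equal length, and by −1 to 1.5 with a library left out, negative without PROLIF replicate 4 or DIFF replicate 1. Among the strongest 20000 peaks that of *Slc13a2* differed by 0, that of *Trim29* by 0.333 and that of *Atp6ap1l* by −0.333, none with the states apart. The shared-region percentile of *Atp6ap1l* differed by 2.86 among the strongest 20000 peaks and by 2.62 with flanks of 25 kb, where 1 and 3 of its 5 regions were left, and by −5.40 to 2.77 with a library left out, positive without PROLIF replicate 1 or DIFF replicate 1. That of *Chil1* was −3.34 among the strongest 20000 peaks, where 1 of its 4 regions was left.

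Same-numbered libraries correlated in their deviations from the state means at 0.0549, 0.153 and 0.0123 and differently numbered ones at −0.112 to 0.0614, and 3 of 6 libraries correlated best with their own number, so the numbers were not taken as pairs. With a replicate block, in which 2 of the 3 same-numbered pairs had to gain the peak and none lose it, further DIFF-only regions numbered 10, while the share of all regions rose from 3.48% to 11.1%. Sign flips cannot give a p below 0.25, so no call was possible with or without the block. The study describes both states as profiled on one set of cultures, but the labels do not tie the numbers. DIFF replicate 4 had a background of 6.01 reads against 2.85 to 3.63 in the others, and depth was addressed through the lists of equal length alone.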
